A study of Homo sapiens with 9 samples.

Results

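The 34 genes described here are target genes of the E2F transcription factors that cells express around the G1/S transition, with 4 E2F factors among them. They were chosen by name, with earlier results of these data known, and all 34 were found among the 58735 genes of the deposited tables. The shares over all genes given below are therefore a description and no independent test of the set. RNA was sequenced from 3 groups of cells with 3 libraries each, 9 in all. The first group was Huh-7 control cells, a human hepatoma line, labelled as wild type. The second was Ako-3, a single Huh-7 clone in which CRISPR/Cas9 with 3 guide RNAs had targeted exon 6 of APOB, the gene of the structural protein of very low density lipoproteins. The third was Mko-3, a single Huh-7 clone in which MTTP was knocked out, the gene of the microsomal protein that loads lipid onto apoB. Per the labels, the cultures were raised in DMEM with 10% fetal bovine serum, and at 80 to 90% confluence all were washed and kept in serum-free medium overnight before RNA was taken. The titles call the libraries of a group biological replicates. Within each knockout they are cultures of 1 clone, so p-values measure the spread between these libraries and a difference between clones that the edited gene does not cause cannot be told apart from one that it does.

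Classical E2F factors, E2F1 and E2F2 among them, bind DNA as dimers with DP proteins. In quiescent and early G1 cells the retinoblastoma protein RB and its relatives p107 and p130 hold classical E2Fs in repressing complexes, and when cyclin D and cyclin E kinases phosphorylate these proteins the E2F target genes are transcribed. The products license and fire replication origins, make deoxynucleotides, package new DNA into chromatin and guard the replication fork. E2F1 and E2F2 activate these genes. The atypical factors E2F7 and E2F8, themselves targets, bind DNA without a DP partner and repress them later in S phase. Hepatocytes in the adult liver are mostly quiescent, while hepatoma lines such as Huh-7 divide in culture.

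The total count on genes ranged from 14638727 to 20179760 per library, and each member had between 45 and 3901 counts in every library, so that none was limited by the minimum count of 10. As a check of the labels, APOB (log2 fold change -1.36, edgeR adjusted p = 7.1e-05) measured 2683, 3508 and 3871 CPM in control libraries 1, 2 and 3, 1419.8, 1258 and 1266 CPM in the Ako-3 libraries and 3115, 3408 and 3250.0 CPM in the Mko-3 libraries. MTTP measured 635, 603 and 663 CPM in the control, 599.9, 576 and 542 CPM in the Ako-3 and 87.3, 90.7 and 82.9 CPM in the Mko-3 libraries (Mko-3 log2 fold change -2.88, edgeR adjusted p = 9.4e-19). Each targeted gene was lowest in its own clone. Hepatocyte and hepatoma markers were expressed in every group, with ALB at 8684, 8876 and 6244 and AFP at 3455, 3856 and 6050 mean CPM in control, Ako-3 and Mko-3 cells. They did not move together. The log2 fold changes in Ako-3 and Mko-3 cells were 0.02 and -0.49 for ALB, 0.15 and 0.80 for AFP and 0.51 and -0.43 for APOA1. They were 1.02 and 0.03 for APOA2, 0.90 and 0.60 for TTR and 0.44 and -0.04 for SERPINA1. For FGB, HNF4A and GPC3 they were -0.13 and 0.10, 0.70 and 0.30, and 0.18 and -0.26. Of 10 markers of other cell types, PTPRC, CD3E, CD68, VWF, COL1A1, ACTA2 and KRT5 were at or near 0 in every group, while PECAM1, EPCAM and, in control cells, COL1A2 were detected. The mean CPM in control, Ako-3 and Mko-3 cells was 80.5, 128 and 183 for EPCAM, 77.6, 106 and 51.1 for PECAM1 and 3.25, 0.351 and 0.374 for COL1A2. All 3 passed the test in each clone, EPCAM at 0.66 and 1.17, PECAM1 at 0.44 and -0.61 and COL1A2 at -3.12 and -3.10 on the log2 scale. Summed over the 10 markers, the level was 146 to 171 CPM in control, 221 to 242 CPM in Ako-3 and 230.5 to 243 CPM in Mko-3 libraries, and its part in the results was not tested. CPM, the counts relative to library size, are TMM-normalized over the 9 libraries.

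One control library stood apart for these genes. Control library 2 had the highest value of the 3 control libraries for 34 of 34 members, whereas over the 15787 genes tested it was the highest for 36.3%. Relative to the mean of control libraries 1 and 3, the members of control library 2 were higher by a median of 0.57 on the log2 scale, from 0.14 for GMNN to 1.13 for DSCC1, and the median of all genes was 0.00. Control library 2 was also the shallowest library, with 14638727 counts, and its mitochondrial share was 5.66% against 5.52% and 6.17% in control libraries 1 and 3. That share was 7.40%, 7.06% and 7.39% in the Ako-3 libraries and 5.75%, 5.81% and 5.82% in the Mko-3 libraries. The part of depth and of the mitochondrial share in the results was not tested. Values without this library are given beside the results below. Since it was the highest control for every member, leaving it out raises their fold changes and tends to narrow the control spread. The smaller adjusted p-values of those fits follow from this selection and are no added evidence.

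Promoter sequences were searched for words held by many of the members. The members were chosen as E2F target genes, so a high share of E2F words among them is no independent result. A RefSeq promoter window (GRCh38.p14, from 250 bases before to 50 bases after the start site) was at hand for 28 of the 34 members. ATAD2, CCNE2, DSCC1, E2F8, GINS4 and WDR76 had none. The E2F motif was searched on both strands as the 4 words TTTCCCGC, TTTCGCGC, TTTGCCGC and TTTGGCGC. At least 1 of them lay in a window of 16 of the 28 members, a share of 57.1%, against 3.99% of the 27305 genes with a window. CCAAT, the word bound by the NF-Y factor, was found in 20 members (71.4%, all genes 39.7%). TTTGAA, the CHR element of many mitotic genes, was found in 2, RRM1 and UNG (7.14%, all genes 18.2%). The member windows also held more G and C, with a median of 65.0% against 58.7% over all windows, and a median of 29 CpG dinucleotides against 14. A word match describes the letters only and does not show that a factor binds there.

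The following stretches are printed because E2F1 is the best known activator of the family, UHRF1 rose most, GINS2, CDC25A and UNG had the smallest adjusted p of their role groups in a comparison with control, CLSPN and UNG differed most between the clones in each direction, and HELLS holds 2 matches. Each is read 5′ to 3′ on the gene's strand, and capitals mark the E2F word or its reverse complement.
E2F1 (chr20:33686376-33686440, minus strand): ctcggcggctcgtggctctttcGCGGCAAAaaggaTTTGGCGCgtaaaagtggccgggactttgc
UHRF1, first start site (chr19:4909465-4909516, plus strand): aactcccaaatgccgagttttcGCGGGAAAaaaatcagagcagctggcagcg
UHRF1, second start site (chr19:4909962-4910013, plus strand): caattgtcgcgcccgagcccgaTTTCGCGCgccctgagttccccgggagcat
GINS2 (chr16:85688956-85689007, minus strand): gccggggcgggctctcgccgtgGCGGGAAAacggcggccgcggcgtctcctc
CDC25A (chr3:48188432-48188483, minus strand): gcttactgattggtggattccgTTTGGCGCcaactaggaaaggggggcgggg
UNG (chr12:109098087-109098138, plus strand): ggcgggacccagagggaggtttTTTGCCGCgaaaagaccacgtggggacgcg
CLSPN (chr1:35769959-35770005, minus strand): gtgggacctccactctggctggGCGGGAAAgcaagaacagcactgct
HELLS (chr10:94545690-94545807, plus strand): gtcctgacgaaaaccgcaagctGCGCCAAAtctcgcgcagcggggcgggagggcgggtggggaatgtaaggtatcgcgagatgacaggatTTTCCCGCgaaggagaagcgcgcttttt

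In E2F1 the words began 33 and 20 bases before the start site, on opposite strands and without overlap. UHRF1 had 1 word 14 bases before the start site printed first and 1 word 160 bases before the one printed second. Both start sites lie downstream of the 5′ end of the gene in the count annotation (4903080). The word of CDC25A began 44 bases before its start site, that of GINS2 31, that of UNG 63 and that of CLSPN 5. The HELLS words began 76 and 8 bases before the start site. The other members with a word were E2F2, DTL, EXO1, GMNN, GINS3, CDT1, CDC6, TYMS and GINS1. CDC45, MCM10, ORC1, RRM2, TK1, SLBP, NASP, CHAF1A, CHAF1B, CCNE1, E2F7 and RRM1 had a window without these 4 words, and of these CCNE1, SLBP and CHAF1B were also without CCAAT.

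In Ako-3 cells, 32 of the 34 genes were upregulated at an adjusted p of at most 0.05, where 25.5% of the 15787 genes tested were called higher, and none fell (background 24.4%). All 34 had log2 fold changes above 0 (background 49.3%), although that of ATAD2 turned to -0.0055 when libraries were scaled by their totals alone. Of the 32, 21 also reached a change of 1 on the log2 scale (background 3.52% higher and 5.00% lower). In Mko-3 cells 32 of the 34 were upregulated (background 26.9% of 15745 genes higher and 27.1% lower), all 34 were above 0 (background 49.0%), and 25 reached both thresholds (background 3.82% higher and 7.22% lower). Over the 34, the log2 fold changes had a median of 1.09 in Ako-3 and 1.17 in Mko-3 cells, beside medians of -0.01 over all genes tested in each. The 2 members that did not pass in either comparison were CCNE2 and ATAD2. Over all genes called at both thresholds in Ako-3 cells, 41.3% were higher. Scaled by library totals alone, 30.8% were, the median of all genes moved to -0.10, and 31 members passed the adjusted p and 17 both thresholds. In Mko-3 cells that scaling left 32 and 21 members. The 2 comparisons use the same control libraries, so they are not independent of each other. In bulk RNA, more cells in a phase of the cycle and more transcript in each cell cannot be told apart.

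Summed over the 34 genes, the members took 989.6 CPM in control library 1, 1370 CPM in control library 2 and 969.8 CPM in control library 3. The sums were 2109, 2103 and 2201 CPM in the Ako-3 libraries and 2264, 2315 and 2340 CPM in the Mko-3 libraries. Every knockout library was above every control library, and the Mko-3 libraries were all above the Ako-3 libraries. Gene by gene, 32 members did not overlap between Ako-3 and control libraries (background 29.7% above and 28.0% below) and 32 did not between Mko-3 and control libraries (background 30.9% above and 29.8% below), and each of these lay above control.

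**Figure D1:**
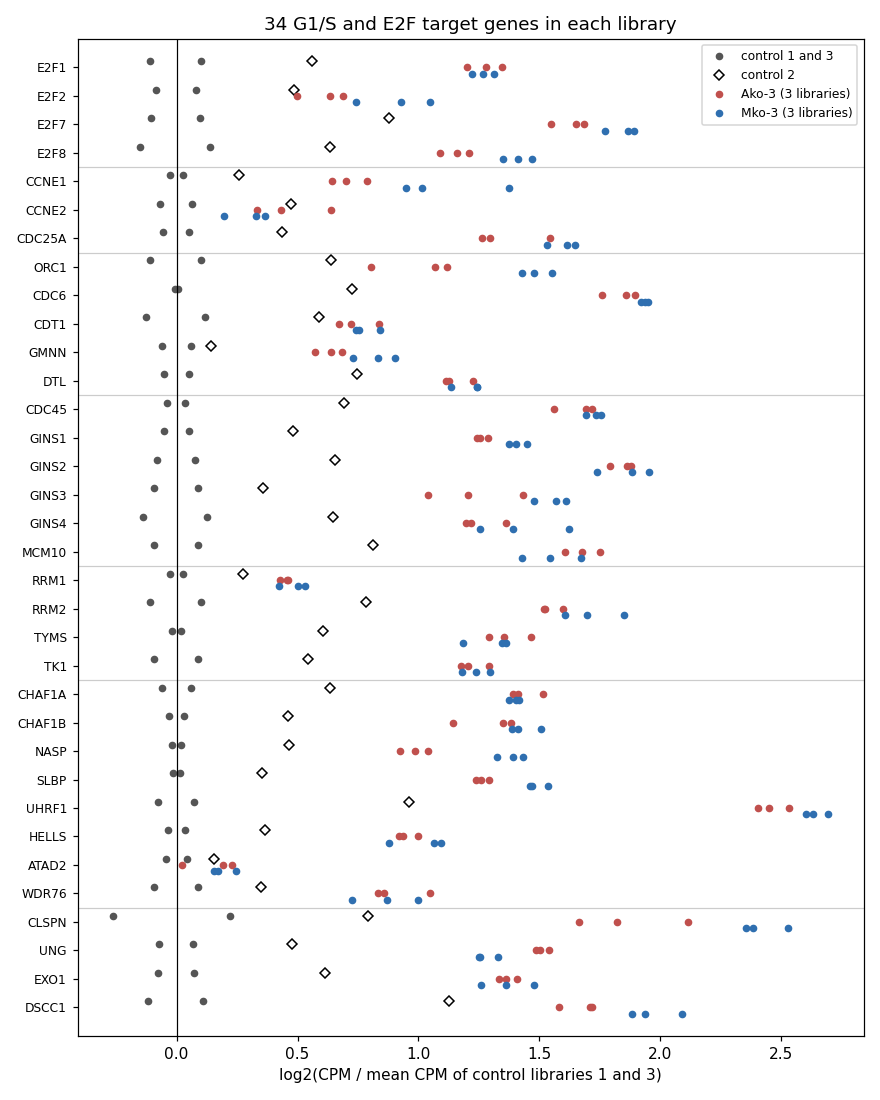
For each of the 34 genes (rows, ordered by role), points give the log2 ratio of the CPM of each of the 9 libraries to the mean CPM of control libraries 1 and 3. Control library 2 (open diamonds) lies to the right of control libraries 1 and 3 for all 34 genes, and for 32 genes each Ako-3 library, and for 32 each Mko-3 library, lies to the right of it.

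Set against control library 2 alone, the members were still higher by a median of 0.73 (log2) in Ako-3 and 0.79 in Mko-3 cells, and against the mean of control libraries 1 and 3 by 1.26 and 1.40. Fitted without control library 2, 32 members passed the adjusted p in Ako-3 and 33 in Mko-3 cells, ATAD2 being the gain (log2 fold change 0.19, edgeR adjusted p = 0.0123). The counts past both thresholds became 23 and 27. Members near the threshold moved with single control libraries. Without control library 1, GINS1 (0.97), GINS4 (0.85), TK1 (0.96), EXO1 (0.999) and DSCC1 (0.97) came under 1 (log2) in Ako-3 cells and RRM2 lost the adjusted p (0.0532), which left 15. Without control library 3, E2F1 (0.93), GINS4 (0.96) and TK1 (0.89) came under 1, which left 18. In Mko-3 cells, CCNE1 (0.97), TYMS (0.96), TK1 (0.98) and EXO1 (0.9998) came under 1 without control library 1 and MCM10 lost the adjusted p (0.0607), which left 20. Without Ako-3 library 3, GINS3 (0.99), GINS4 (0.96) and TK1 (0.99) came under 1 in Ako-3 cells, which left 18, and without Mko-3 library 2 CCNE1 (0.89) did in Mko-3 cells, which left 24. In Mko-3 cells the count was also 20 without control library 3, where E2F1 (0.91), CCNE1 (0.998), TYMS (0.97), TK1 (0.90) and UNG (0.98) came under 1.

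The spread of the members within groups differed. Over the 34 genes, the SD of log2 CPM had a median of 0.35 in control libraries, 0.07 in Ako-3 and 0.06 in Mko-3 libraries. Control libraries 1 and 3 differed from each other by a median of 0.14 (log2). When control library 2 was left out, the adjusted p of UHRF1 in Ako-3 cells went from 0.00318 to 2.6e-19. That value rests on control libraries 1 and 3 alone and shows how much the test depends on the control spread.

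Among the E2F factors, all 4 were higher in both clones. E2F7, an atypical repressor (ENSG00000165891, chromosome 12, 77021247 to 77065580, minus strand), stood at 6.07, 10.4 and 5.27 CPM in control libraries 1, 2 and 3, at 17.8, 16.6 and 18.2 CPM in the Ako-3 libraries and at 21.0, 19.4 and 20.7 CPM in the Mko-3 libraries. It had the smallest adjusted p of this group in Ako-3 cells, rising by 1.28 ± 0.19 (log2 ± SE, adjusted p = 6.0e-05), and rose by 1.496 ± 0.18 in Mko-3 cells (adjusted p = 1.1e-05). Neither knockout overlapped the control, though control library 2 was the nearest. E2F8, its close relative (ENSG00000129173, chromosome 11, 19224063 to 19241620, minus strand), was at 5.59, 9.64 and 6.83 CPM in control, 13.9, 13.2 and 14.4 CPM in Ako-3 and 15.8, 17.2 and 16.5 CPM in Mko-3 libraries. Here the groups were ordered without overlap. Ako-3 cells were 0.91 ± 0.16 (adjusted p = 6.9e-05) and Mko-3 cells 1.17 ± 0.15 (adjusted p = 1.7e-06) above control on the log2 scale, the second past both thresholds.

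E2F1, an activator (ENSG00000101412, chromosome 20, 33675683 to 33686404, minus strand), measured 50.7, 69.6 and 43.7 CPM in control libraries, 108, 115 and 119.9 CPM in Ako-3 and 113, 110.02 and 117 CPM in Mko-3 libraries. It rose by 1.06 ± 0.15 and 1.05 ± 0.15 on the log2 scale (adjusted p = 3.5e-04 and 3.0e-04), and the libraries of the clones interleaved. E2F2, the second activator, moved least, with 19.3, 25.6 and 17.3 CPM in control, 25.8, 28.4 and 29.5 CPM in Ako-3 and 30.6, 34.8 and 37.8 CPM in Mko-3 libraries. Its lowest Ako-3 library was just above control library 2, and it rose by 0.43 ± 0.12 and 0.73 ± 0.12 (adjusted p = 0.00549 and 1.0e-04). By FPKM, which divides by gene length, E2F1 was the most abundant of the 4 factors in control cells at 21.6 ± 5.34 (SD, n = 3) and E2F7 the least at 1.14 ± 0.438. The ratio of E2F7 to E2F1 FPKM was 0.0476, 0.0595 and 0.0479 in the control libraries, 0.0653, 0.0576 and 0.0604 in the Ako-3 and 0.0735, 0.0699 and 0.0701 in the Mko-3 libraries. This ratio was higher in every Mko-3 library than in any control library, while the Ako-3 and control libraries overlapped.

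Cyclin E activates CDK2 at the end of G1, and CDC25A removes the inhibitory phosphates from that kinase. CDC25A (ENSG00000164045, chromosome 3, 48157146 to 48188402, minus strand) was at 16.1, 22.6 and 17.4 CPM in control, 41.1, 40.2 and 48.8 CPM in Ako-3 and 48.4, 51.2 and 52.5 CPM in Mko-3 libraries, with no overlap between control and either clone. It rose by 1.21 ± 0.11 in Ako-3 and 1.43 ± 0.10 in Mko-3 cells (log2, adjusted p = 1.3e-07 and 4.6e-10). CCNE1 (ENSG00000105173, chromosome 19, 29811898 to 29824308, plus strand), one of the cyclin E genes, was at 7.74, 9.44 and 8.05 CPM in control, 12.8, 12.3 and 13.6 CPM in Ako-3 and 15.2, 20.4 and 15.9 CPM in Mko-3 libraries. Its log2 fold changes were 0.62 ± 0.13 (adjusted p = 4.7e-04) and 1.03 ± 0.13 (adjusted p = 1.5e-06), and Mko-3 library 2 was the highest of the 9. The other cyclin E gene, CCNE2, was at 2.74, 3.63 and 2.50 CPM in control, 3.30, 4.07 and 3.53 CPM in Ako-3 and 3.28, 3.37 and 3.00 CPM in Mko-3 libraries, and its groups overlapped. Its log2 fold changes of 0.30 ± 0.22 and 0.12 ± 0.22 did not pass the test (adjusted p = 0.255 and 0.659). Of the exon bases of CCNE2, 37.1% overlap INTS8 on the opposite strand. Over the 9 libraries INTS8 had 4632 counts and CCNE2 509. The library kit and the strand setting of the counting are not given in the sources used here, so reads of the pair may not have been told apart. By FPKM, CCNE1 exceeded CCNE2 in every library, by 4.97 ± 0.543 times in control, 6.19 ± 0.842 times in Ako-3 and 9.20 ± 1.23 times in Mko-3 cells (SD, n = 3).

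Origins are licensed when ORC, CDC6 and CDT1 load the MCM helicase in G1. Geminin, the product of GMNN, inhibits CDT1, and DTL directs the destruction of CDT1 in S phase. All 5 of these members were upregulated in both clones. CDC6 rose most, from 23.0, 37.9 and 22.9 CPM in control to 83.3, 77.7 and 85.4 CPM in Ako-3 and 86.9, 88.7 and 88.0 CPM in Mko-3 libraries. Its log2 fold changes were 1.56 ± 0.19 and 1.65 ± 0.19 (adjusted p = 4.2e-04 and 2.1e-04), and every knockout library was above every control library. ORC1, the subunit of the origin recognition complex that varies over the cycle, was at 16.2, 23.5 and 14.0 CPM in control, 31.6, 26.3 and 32.7 CPM in Ako-3 and 40.6, 44.3 and 42.0 CPM in Mko-3 libraries. The lowest Ako-3 library was close to control library 2, and the log2 fold change was 0.76 ± 0.16 (adjusted p = 0.00194), against 1.24 ± 0.14 in Mko-3 cells (adjusted p = 8.6e-06).

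GMNN (ENSG00000112312, chromosome 6, 24774931 to 24786099, plus strand) had the smallest adjusted p of the licensing group in both comparisons, with 53.9, 57.2 and 49.6 CPM in control, 83.3, 80.7 and 77.1 CPM in Ako-3 and 85.7, 96.8 and 92.3 CPM in Mko-3 libraries. The control libraries lay close together for this gene, control library 2 included, and the log2 fold changes were 0.58 ± 0.07 and 0.76 ± 0.07 (adjusted p = 1.8e-06 and 2.8e-08). CDT1 had weaker evidence, at 58.1, 80.5 and 49.1 CPM in control, 88.3, 95.6 and 85.2 CPM in Ako-3 and 90.3, 89.6 and 96.1 CPM in Mko-3 libraries. Its log2 fold changes were 0.52 ± 0.16 (adjusted p = 0.0337) and 0.55 ± 0.16 (adjusted p = 0.0249). The adjusted p of CDT1 was 0.191 in Ako-3 and 0.174 in Mko-3 cells without control library 1, 0.0878 without Ako-3 library 1, 0.0842 without Ako-3 library 2 and 0.0548 without Mko-3 library 3. Without control library 2, the highest control, the log2 fold changes were 0.74 and 0.78 (adjusted p = 5.9e-09 and 6.5e-10), which is no added evidence. DTL went from 24.6 ± 7.90 CPM to 44.8 ± 1.93 and 46.4 ± 1.94 CPM (SD, n = 3), log2 fold changes of 0.87 and 0.91 (adjusted p = 0.00607 and 0.00427) that passed 1 without control library 2 (1.15 and 1.21). The FPKM ratio of CDT1 to its inhibitor GMNN was 0.800, 1.05 and 0.734 in the control libraries. It was 0.787, 0.880 and 0.821 in the Ako-3 and 0.781, 0.687 and 0.773 in the Mko-3 libraries. The control libraries overlapped those of each clone, while every Ako-3 library was above every Mko-3 library, by a narrow gap (0.787 against 0.781).

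Helicase activation joins CDC45 and the 4 GINS subunits to the loaded MCM ring, with MCM10 needed for it to unwind DNA. All 6 members passed both thresholds in both clones, with median log2 fold changes of 1.23 and 1.32. GINS2 (ENSG00000131153, chromosome 16, 85676198 to 85690073, minus strand) had the smallest adjusted p of this group, with 10.2, 15.2 and 9.10 CPM in control, 33.3, 35.04 and 35.4 CPM in Ako-3 and 32.1, 35.5 and 37.3 CPM in Mko-3 libraries. It rose by 1.60 ± 0.14 and 1.61 ± 0.14 (log2, adjusted p = 8.5e-08 and 1.8e-07), with the clones interleaved above all controls. By FPKM, GINS1 was the most abundant of the 4 GINS genes and GINS3 the least. GINS1 was at 51.5, 74.4 and 55.3 CPM in control, 126, 127 and 130.1 CPM in Ako-3 and 138, 141 and 146 CPM in Mko-3 libraries, with log2 fold changes of 1.08 ± 0.11 and 1.22 ± 0.11 (adjusted p = 2.4e-06 and 9.0e-07). GINS3 was at 2.90, 3.498 and 2.55 CPM in control, 6.29, 5.60 and 7.35 CPM in Ako-3 and 8.32, 7.60 and 8.09 CPM in Mko-3 libraries, with log2 fold changes of 1.10 ± 0.19 and 1.42 ± 0.18 (adjusted p = 6.7e-05 and 6.9e-07). Although their proteins are built into 1 complex in equal number, GINS1 exceeded GINS3 by FPKM 25.4 ± 2.71 times in control, 25.3 ± 3.18 times in Ako-3 and 22.2 ± 1.28 times in Mko-3 cells (SD, n = 3), ranges that overlapped. Exons of GINS3 and GINS4 overlap unnamed opposite-strand genes over 10.9% and 21.0% of their bases, with 3 and 55 counts on those genes over the 9 libraries.

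GINS4 measured 13.8, 23.8 and 16.6 CPM in control, 35.4, 34.9 and 39.0 CPM in Ako-3 and 36.3, 39.8 and 46.9 CPM in Mko-3 libraries, and rose by 1.01 ± 0.15 and 1.18 ± 0.18 (log2, adjusted p = 1.7e-04 and 4.6e-04). CDC45 stood at 11.4, 18.9 and 11.99 CPM in control, 34.5, 37.7 and 38.4 CPM in Ako-3 and 38.9, 37.8 and 39.4 CPM in Mko-3 libraries, log2 fold changes of 1.39 ± 0.15 and 1.46 ± 0.15 (adjusted p = 5.1e-06 and 1.2e-06). For both genes control library 2 was the only control near the knockouts, and no group pair with control overlapped. MCM10 stood at 23.4, 38.7 and 20.6 CPM in control, 67.1, 70.5 and 74.2 CPM in Ako-3 and 59.3, 64.2 and 70.3 CPM in Mko-3 libraries. Its control library 2 was 0.81 above the mean of the other controls on the log2 scale, and its log2 fold changes were 1.36 ± 0.24 and 1.23 ± 0.26 (adjusted p = 0.00537 and 0.012).

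Deoxynucleotides are made by ribonucleotide reductase, whose large subunit is RRM1 and whose small S phase subunit is RRM2, and thymidine nucleotides by thymidylate synthase (TYMS) and thymidine kinase 1 (TK1). RRM2 was at 32.4, 52.1 and 28.0 CPM in control, 91.6, 86.7 and 86.9 CPM in Ako-3 and 91.9, 109 and 98.1 CPM in Mko-3 libraries, and rose by 1.24 ± 0.24 and 1.41 ± 0.26 (log2, adjusted p = 0.00854 and 0.00865). RRM1 rose less, from 88.9 ± 10.2 to 113 ± 1.44 and 116 ± 4.49 CPM (SD, n = 3), by 0.34 ± 0.07 and 0.38 ± 0.08 (adjusted p = 7.0e-04 and 2.3e-04). The FPKM ratio of RRM2 to RRM1 was accordingly 0.313, 0.406 and 0.260 in control, 0.644, 0.597 and 0.597 in Ako-3 and 0.647, 0.727 and 0.641 in Mko-3 libraries. For this ratio all 6 knockout libraries were above all 3 controls.

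TYMS (ENSG00000176890, chromosome 18, 657604 to 673578, plus strand) had the smallest adjusted p of the nucleotide group, with 25.6, 39.4 and 26.2 CPM in control, 63.3, 66.2 and 71.5 CPM in Ako-3 and 58.8, 65.8 and 66.5 CPM in Mko-3 libraries and log2 fold changes of 1.14 ± 0.14 and 1.06 ± 0.14 (adjusted p = 6.3e-05 and 1.1e-04). The exons of TYMS overlap those of ENOSF1 on the opposite strand over 39.9% of their bases, so reads of this pair may not have been told apart either. Over the 9 libraries ENOSF1 had 10582 counts and TYMS 8326. TK1 was at 47.4, 65.0 and 41.8 CPM in control, 103, 101 and 109 CPM in Ako-3 and 105, 101 and 109 CPM in Mko-3 libraries, and rose by 1.02 ± 0.13 and 1.03 ± 0.13 (log2, adjusted p = 1.1e-04 and 1.2e-04). For TYMS and TK1 the clones overlapped each other and neither overlapped control.

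**Figure D2:**
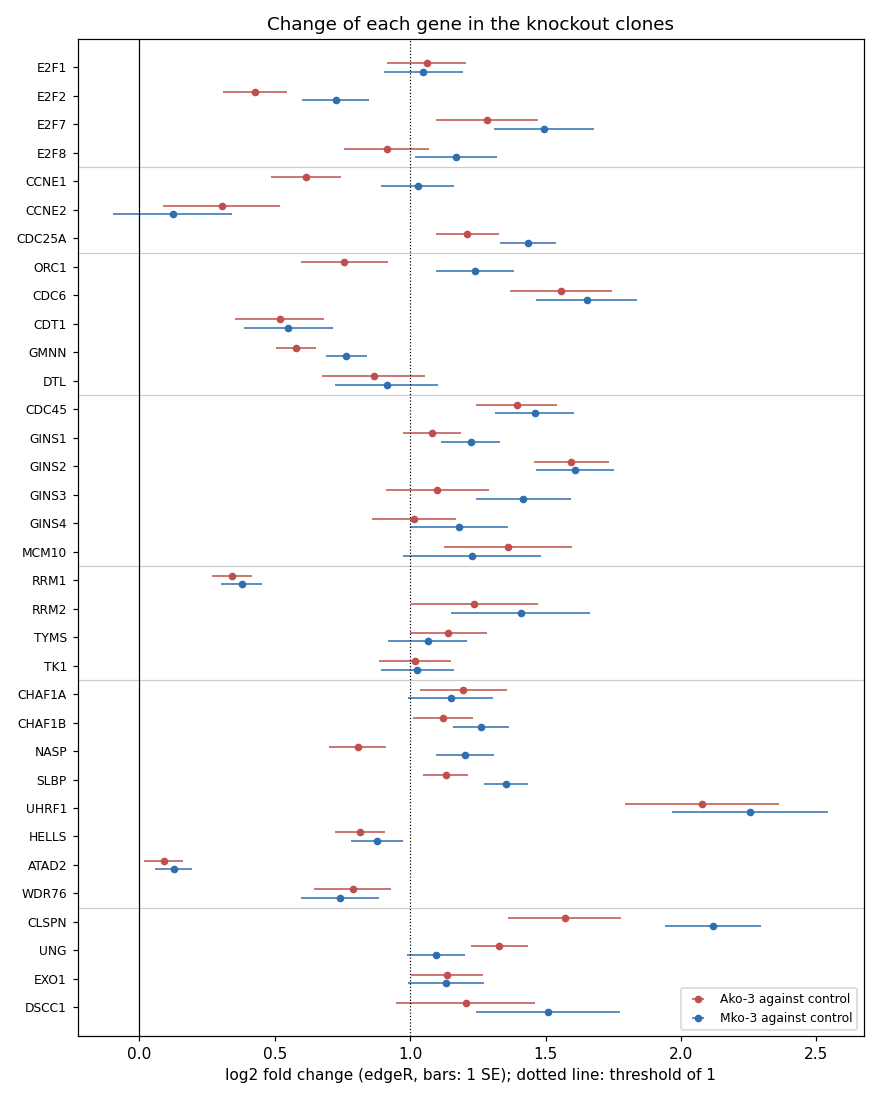
Log2 fold changes from edgeR with bars of 1 SE are drawn for the 34 genes, in the order of their roles, for Ako-3 and Mko-3 cells against the same control libraries, and the dotted line marks a value of 1. UHRF1 lies farthest to the right in both comparisons (2.08 and 2.25), and CCNE2 and ATAD2 lie nearest to 0.

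Of the 8 members that assemble or maintain chromatin, 7 rose in each clone and ATAD2 did not pass the test. UHRF1 (ENSG00000276043, chromosome 19, 4903080 to 4962154, plus strand), which recognises hemimethylated DNA behind the fork and recruits the maintenance methyltransferase, was at 15.4, 28.4 and 13.9 CPM in control, 77.4, 79.7 and 84.7 CPM in Ako-3 and 90.6, 94.5 and 88.9 CPM in Mko-3 libraries. Its log2 fold changes of 2.08 ± 0.28 and 2.25 ± 0.29 (adjusted p = 0.00318 and 0.00245) were the largest of the 34 and became 2.45 and 2.64 without control library 2. Control library 2 was the nearest to the knockouts, and even so it was far below them. SLBP (ENSG00000163950, chromosome 4, 1692800 to 1712555, minus strand), the binding protein of histone mRNA stem-loops, had the smallest adjusted p of all members, with 55.0, 70.9 and 56.2 CPM in control, 131, 133 and 136 CPM in Ako-3 and 161, 153 and 154 CPM in Mko-3 libraries. The 3 groups did not overlap, and the log2 fold changes were 1.13 ± 0.08 and 1.35 ± 0.08 (adjusted p = 1.1e-09 and 4.7e-11).

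CHAF1A and CHAF1B encode subunits of CAF-1, which deposits histones H3 and H4 on newly made DNA. CHAF1A stood at 30.9, 49.96 and 33.5 CPM in control, 84.4, 85.6 and 92.1 CPM in Ako-3 and 85.1, 83.5 and 85.9 CPM in Mko-3 libraries, and CHAF1B at 20.5, 27.7 and 19.6 CPM, 52.3, 44.4 and 51.1 CPM and 53.5, 52.6 and 57.1 CPM. CHAF1A rose by 1.20 ± 0.16 and 1.15 ± 0.16 (log2, adjusted p = 3.3e-04 and 2.6e-04) and CHAF1B by 1.12 ± 0.11 and 1.26 ± 0.10 (adjusted p = 2.9e-07 and 7.2e-09). The FPKM ratio of CHAF1A to CHAF1B was 1.99 ± 0.183 in control, 2.12 ± 0.190 in Ako-3 and 1.86 ± 0.0592 in Mko-3 cells (SD, n = 3). The control libraries overlapped those of each clone, while every Ako-3 library was above every Mko-3 library, by a narrow gap (1.92 against 1.90). NASP (ENSG00000132780, chromosome 1, 45583846 to 45618904, plus strand), a histone chaperone, measured 82.9, 113 and 80.7 CPM in control, 155, 162 and 168 CPM in Ako-3 and 221, 205 and 214 CPM in Mko-3 libraries. It reached the fold threshold only in Mko-3 cells (1.20 ± 0.11, adjusted p = 1.3e-06) and was at 0.81 ± 0.11 in Ako-3 cells (adjusted p = 3.5e-05).

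HELLS, a chromatin remodeler, went from 31.4 ± 4.83 CPM to 55.4 ± 1.62 and 58.0 ± 4.58 CPM (SD, n = 3), log2 fold changes of 0.82 and 0.88 (adjusted p = 3.9e-07 and 1.9e-07). WDR76 went from 6.89 ± 1.08 to 11.9 ± 0.991 and 11.5 ± 1.09 CPM, log2 fold changes of 0.79 and 0.74 (adjusted p = 1.1e-04 and 1.8e-04). Both were upregulated by less than 2-fold, without overlap with control. ATAD2, a bromodomain ATPase and the eighth of this group, was at 103, 119 and 109.8 CPM in control, 125, 108 and 122 CPM in Ako-3 and 119.9, 126 and 119 CPM in Mko-3 libraries. Its groups overlapped, with log2 fold changes of 0.09 ± 0.07 and 0.13 ± 0.07 (adjusted p = 0.324 and 0.117), the first of which was -0.0055 when libraries were scaled by their totals alone.

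All 4 members of the checkpoint, repair and cohesion group passed both thresholds in both clones. CLSPN (ENSG00000092853, chromosome 1, 35720218 to 35769967, minus strand) encodes claspin, which links stalled forks to the checkpoint kinase CHK1, and was at 3.81, 7.92 and 5.33 CPM in control, 16.1, 14.5 and 19.8 CPM in Ako-3 and 23.4, 26.4 and 23.8 CPM in Mko-3 libraries. It rose by 1.57 ± 0.21 and 2.12 ± 0.18 (log2, adjusted p = 3.6e-05 and 1.1e-07), the second largest change in Mko-3 cells. UNG (ENSG00000076248, chromosome 12, 109097574 to 109110992, plus strand), the glycosylase that removes uracil from DNA, was at 45.4, 60.3 and 41.2 CPM in control, 123, 122 and 126 CPM in Ako-3 and 103, 104 and 109 CPM in Mko-3 libraries. Its order was control below Mko-3 below Ako-3 without overlap, with log2 fold changes of 1.33 ± 0.11 and 1.09 ± 0.11 (adjusted p = 1.9e-07 and 1.1e-06).

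EXO1, an exonuclease of mismatch repair and end resection, was at 14.2, 23.0 and 15.8 CPM in control, 37.9, 38.6 and 39.9 CPM in Ako-3 and 35.9, 38.6 and 41.8 CPM in Mko-3 libraries, and rose by 1.14 ± 0.13 and 1.13 ± 0.14 (log2, adjusted p = 6.2e-06 and 1.0e-05). DSCC1, part of the clamp loader that acts in sister chromatid cohesion, was at 3.98, 9.44 and 4.66 CPM in control, 14.1, 12.9 and 14.2 CPM in Ako-3 and 18.4, 16.5 and 15.9 CPM in Mko-3 libraries. Its control library 2 was 1.13 above the mean of the others on the log2 scale, the widest gap of the 34. Its log2 fold changes were 1.21 ± 0.26 and 1.51 ± 0.27 with that library (adjusted p = 0.00297 and 0.00122) and 1.66 and 1.97 without it.

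The clones were also compared directly, which uses no control library. In Mko-3 against Ako-3 cells, 13 members were higher (background 21.1% of 15528 genes) and 1 lower (background 20.6%) at an adjusted p of at most 0.05, and none reached a 2-fold difference, where the background was 2.26% higher and 3.47% lower. Of the 34, 26 had values above 0 (background 50.5%). Their median was 0.12, beside 0.00 over all genes, and 16 members lay wholly above and 1 wholly below the Ako-3 libraries (background 25.6% and 24.1%). CLSPN differed most, by 0.55 ± 0.09 (adjusted p = 1.5e-06). ORC1 followed at 0.49 ± 0.07 (adjusted p = 8.8e-08), then CCNE1 at 0.41 ± 0.11 (adjusted p = 0.0012). NASP, at 0.40 ± 0.04, had the smallest adjusted p (5.9e-12). UNG was the member that was lower in Mko-3 cells, at -0.23 ± 0.05 (adjusted p = 5.4e-05). Several calls between the clones rested on single libraries. Without Mko-3 library 2, CCNE1 was at 0.27 (adjusted p = 0.0740), RRM2 at 0.10 (adjusted p = 0.163) and E2F8 at 0.23 (adjusted p = 0.133). Without Ako-3 library 2, CDC25A (adjusted p = 0.0713), DSCC1 (0.0729) and E2F8 (0.129) were not called. E2F8 was also not called without Ako-3 library 1 (0.0668) or Mko-3 library 3 (0.0786), GINS1 without Mko-3 library 3 (0.0609) and DSCC1 without Mko-3 library 1 (0.107).

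For other members the difference between the clones was small with a narrow error. The log2 difference was -0.01 ± 0.05 for E2F1, 0.01 ± 0.07 for GINS2, 0.01 ± 0.05 for TK1 and 0.03 ± 0.05 for CDT1 (SE). The sign of each of these 4 turned under at least one alternative, so no direction is given for them. CCNE2 had the widest error, -0.18 ± 0.20, at 3.22 to 3.63 mean CPM in the clones. When the spread was estimated from all 9 libraries together, 7 of the 13 higher calls and not that of UNG were made, and the control libraries then entered the estimate.

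**Figure D3:**
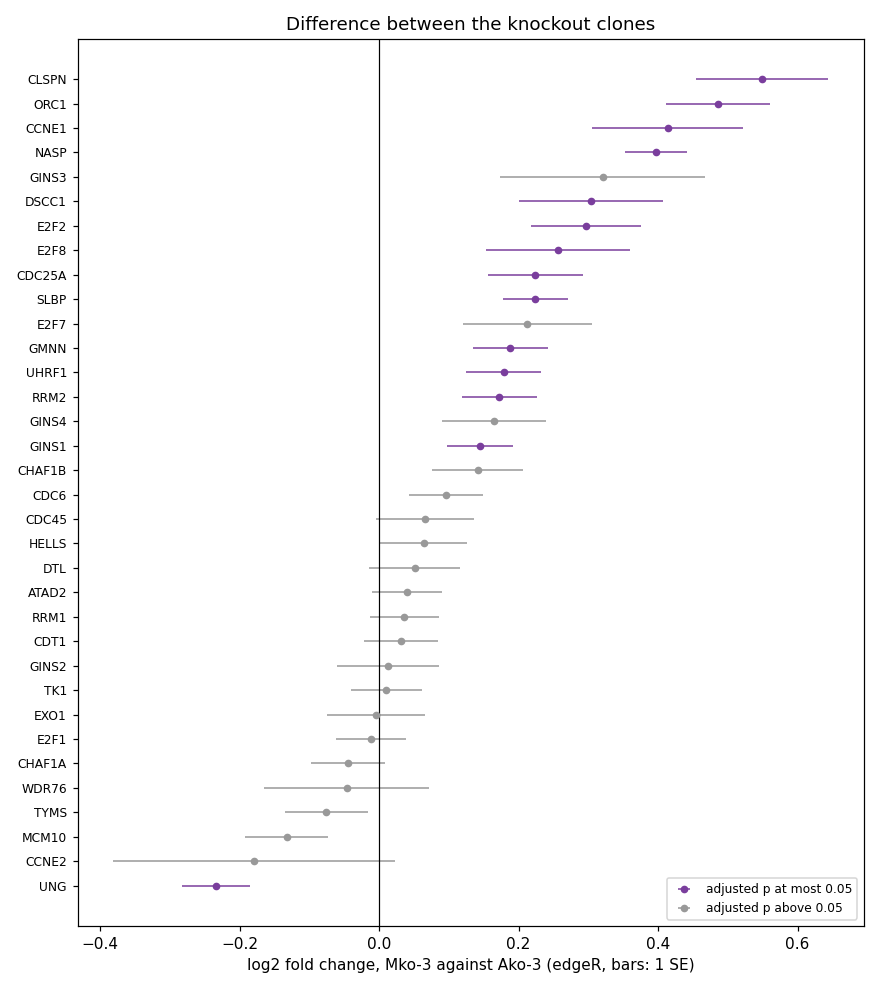
Log2 fold changes of Mko-3 against Ako-3 cells (edgeR, bars of 1 SE) are drawn for the 34 genes, ordered by value, with purple points for an adjusted p of at most 0.05. Of the 14 purple points, 13 lie to the right of 0, up to 0.55 for CLSPN, and UNG lies to the left at -0.23.

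The members were also ordered by FPKM within each group. In control cells the highest were SLBP at 29.7 ± 4.39, TK1 at 27.4 ± 6.49 and E2F1 at 21.6 ± 5.34 FPKM (SD, n = 3), and the lowest were CLSPN at 1.04 ± 0.382, CCNE2 at 0.666 ± 0.136 and GINS3 at 0.579 ± 0.0937. With control library 2 included, each of the 33 neighbouring pairs in this order overlapped in control cells. In Ako-3 cells 20 of 33 and in Mko-3 cells 17 of 33 neighbouring pairs overlapped. The median member level was 4.94 FPKM in control, 11.6 in Ako-3 and 12.7 in Mko-3 cells. SLBP was the highest in Mko-3 cells too, at 76.4 ± 2.19, followed by TK1 at 56.1 ± 2.41, E2F1 at 45.0 ± 1.59 and UNG at 40.6 ± 1.34 FPKM, and these 4 did not overlap each other.

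Other genes of the pathway were read from lists chosen with earlier results of these data known, and all of their genes were tested. Over all genes 25.5% rose and 24.4% fell in Ako-3 and 26.9% rose and 27.1% fell in Mko-3 cells. Of 9 E2F partners and pocket proteins, 5 rose and 1 fell in each clone, with medians of 0.21 and 0.45. TFDP1, the DP partner of E2F, rose from 50.3 ± 7.81 to 100.3 ± 4.02 and 113 ± 2.06 CPM (log2 fold changes 0.99 and 1.15, adjusted p = 2.6e-08 and 8.2e-10). E2F4, which acts mainly in repressing complexes, rose by 0.44 and 0.76 (adjusted p = 1.2e-04 and 6.4e-08). Of 9 genes of the DREAM and MuvB complexes and their partners, 3 rose and 2 fell in Ako-3 and 4 rose and 2 fell in Mko-3 cells. The shares that rose were 33.3% and 44.4%, beside 25.5% and 26.9% over all genes. FOXM1, a transcription factor of mitotic genes, rose by 0.75 and 0.67 (adjusted p = 2.1e-07 and 7.5e-07). LIN54, the DNA-binding subunit of MuvB, fell by 0.43 and 0.26 on the log2 scale (adjusted p = 7.9e-05 and 0.00874), and RBBP4, its histone-binding subunit, rose by 0.20 and 0.51 (adjusted p = 0.0162 and 1.3e-06).

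Among 20 other licensing and firing factors, 15 rose and 2 fell in Ako-3 cells and 16 rose and 1 fell in Mko-3 cells, with medians of 0.52 and 0.56. The MCM2, MCM4, MCM5 and MCM7 subunits of the helicase were past both thresholds in both clones and MCM6 in Mko-3 cells alone, at 0.99 and 1.11 (adjusted p = 7.1e-05 and 5.7e-05). ORC3, another subunit of the origin complex, had the smallest adjusted p of this list in Ako-3 cells at 0.83 (1.8e-07) and was at 0.30 in Mko-3 cells (0.0118). TOPBP1, a scaffold of helicase activation, rose by 0.77 and 0.75 (adjusted p = 1.0e-05 and 1.1e-05), while CDC7, the kinase that fires origins, rose by 0.32 and 0.70 (adjusted p = 0.0193 and 1.6e-05). Control library 2 was the highest control for 17 of these 20, by a median of 0.36.

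Of 24 other enzymes of nucleotide synthesis, 12 rose and 3 fell in Ako-3 and 14 rose and 4 fell in Mko-3 cells, with medians of 0.20 and 0.22. SAMHD1, which degrades deoxynucleotides, rose by 1.08 and 0.83 (adjusted p = 1.6e-08 and 4.5e-07), and MTHFD1, an enzyme of folate metabolism, by 0.90 and 0.83 (adjusted p = 1.9e-08 and 2.6e-08). CTPS1, a CTP synthase, rose by 0.63 and 1.11 (adjusted p = 1.9e-05 and 4.5e-09), and DCTPP1, which hydrolyses dCTP, by 0.81 and 0.99 (adjusted p = 1.5e-07 and 2.4e-09). RRM2B, the ribonucleotide reductase subunit used outside S phase, fell by 0.52 and 0.32 on the log2 scale (adjusted p = 5.5e-05 and 0.00365), and was named after its values were seen.

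Of 11 genes of the S phase checkpoint, 3 rose and 1 fell in Ako-3 and 4 rose and 1 fell in Mko-3 cells. The shares that rose, 27.3% and 36.4%, stood beside 25.5% and 26.9% over all genes, and the list had medians of 0.03 and 0.13. TIMELESS, a protein that travels with the fork, rose by 1.06 and 0.79 (adjusted p = 2.3e-04 and 6.1e-04). ATRIP and ATR, the partners of the checkpoint kinase complex, rose by 0.61 and 0.31 in Ako-3 cells (adjusted p = 3.7e-04 and 0.0194) and by 0.41 and 0.52 in Mko-3 cells (adjusted p = 0.00871 and 3.3e-04). Of 14 genes of cyclin A, CDK2 and the degradation of S phase proteins, 6 rose and 2 fell in Ako-3 and 5 rose and 3 fell in Mko-3 cells, with medians of 0.09 and 0.11. SKP2, the ligase subunit that targets p27, rose by 0.71 and 0.69 (adjusted p = 7.7e-09 and 5.0e-09), and FBXO5, an inhibitor of the anaphase-promoting complex, by 0.73 and 0.89 (adjusted p = 1.7e-05 and 6.6e-07).

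Of 24 genes of G2 and mitosis, 14 rose and none fell in Ako-3 cells, and 14 rose and 2 fell in Mko-3 cells. None reached a 2-fold change in either. Over all genes, the shares past both thresholds were also small. They were 3.52% higher and 5.00% lower in Ako-3 and 3.82% higher and 7.22% lower in Mko-3 cells. The medians were 0.22 and 0.22, beside 1.09 and 1.17 for the 34 members. BIRC5, the survivin subunit of the chromosomal passenger complex, rose by 0.62 and 0.51 (adjusted p = 1.8e-06 and 1.2e-05), CENPF, a kinetochore protein, by 0.73 and 0.88 (adjusted p = 9.1e-05 and 8.6e-06), and CCNB1, the mitotic cyclin, by 0.35 and 0.49 (adjusted p = 4.4e-04 and 6.9e-06). Control library 2 was the highest control for 22 of these 24 genes, by a median of 0.25, and against control library 2 alone their median was 0.08 in Ako-3 and 0.07 in Mko-3 cells.

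**Figure D4:**
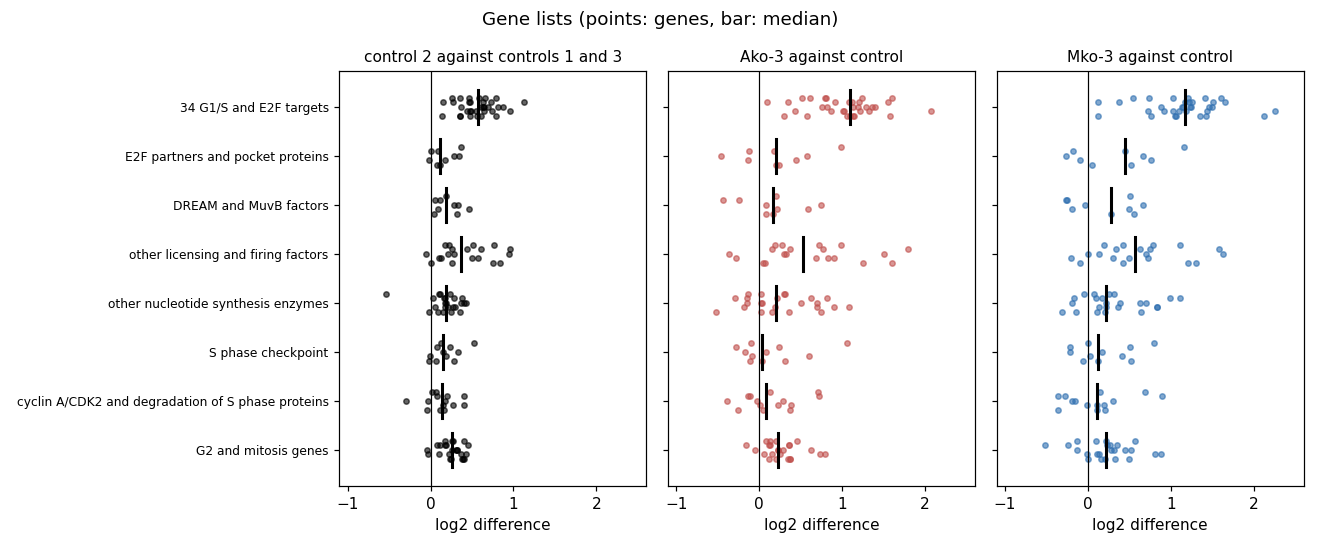
Each point is a gene, and each black bar the median of a list, for the log2 difference of control library 2 from the mean of control libraries 1 and 3 (left) and for the edgeR log2 fold changes of Ako-3 (middle) and Mko-3 (right) against control. The 34 members have the medians farthest to the right in all 3 panels (0.57, 1.09 and 1.17), and the other licensing and firing factors come next (0.36, 0.52 and 0.56).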

How the data were processed

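Poly(A) RNA of 3 control, 3 Ako-3 and 3 Mko-3 cultures was sequenced. Per the labels, the authors aligned reads with HISAT2 2.0.5 and counted them on genes with featureCounts 1.5.0-p3. They deposited raw counts per gene on hg38 positions, FPKM computed from these counts, gene length and a library size scaled over all 9 libraries, and gene lengths. Read filters and the strand setting are not given in the sources used here.

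Counts were tested with edgeR 4.0.16 in R 4.3.3 (TMM, the filterByExpr filter with min.count 10, quasi-likelihood F test with robust dispersion, Benjamini-Hochberg adjustment over all genes tested), in a fit of 6 libraries for each of 3 comparisons. Scripts were tested on simulated data. Thresholds were an adjusted p of 0.05, alone and with an absolute log2 fold change of 1. The SE is the log2 fold change divided by the square root of F. For a single value, 3 against 3 libraries allow no exact permutation p under 0.1. Promoter sequences came from RefSeq and were searched by letters.

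The members and lists were chosen with earlier results of these data known. All 34 members are named. Per-library values and full statistics are given for those past both thresholds in any comparison and for those with the smallest adjusted p in each role group. In each list up to 2 genes with the smallest adjusted p per comparison with control are named. Beyond this rule, the MCM subunits were named for passing both thresholds, and RRM2B after its values were seen. Alternatives were other scalings and filters, DESeq2 1.42.0, a replicate block, 1 fit of all libraries and leaving out each library.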

Additional observations from a re-analysis of the deposited data

Results flagged for a closer look

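For 14 members the levels in the 2 knockout clones differed by a direct test, edgeR's quasi-likelihood test of Mko-3 against Ako-3 libraries at an adjusted p of at most 0.05 (background 21.1% of genes higher and 20.6% lower). The log2 fold changes were 0.55 for CLSPN, 0.49 for ORC1, 0.41 for CCNE1, 0.40 for NASP, 0.30 for DSCC1, 0.30 for E2F2, 0.26 for E2F8, 0.22 for CDC25A, 0.22 for SLBP, 0.19 for GMNN, 0.18 for UHRF1, 0.17 for RRM2, 0.14 for GINS1 and -0.23 for UNG. Each of the 3 Mko-3 libraries was above each Ako-3 library for CLSPN (16.1, 14.5 and 19.8 against 23.4, 26.4 and 23.8 CPM), ORC1 (31.6, 26.3 and 32.7 against 40.6, 44.3 and 42.0 CPM) and NASP (155, 162 and 168 against 221, 205 and 214 CPM), and below for UNG (123, 122 and 126 against 103, 104 and 109 CPM). E2F2, E2F8, CCNE1, GMNN, GINS1, RRM2, SLBP, UHRF1 and DSCC1 also lay wholly above the Ako-3 libraries. Over all genes 25.6% lay wholly above and 24.1% wholly below. Since each knockout is 1 clone, a difference between the edited genes cannot be told apart from one between the clones. CCNE1, RRM2, GINS1, CDC25A, DSCC1 and E2F8 each lost the call without at least 1 of the 6 libraries, at adjusted p values of 0.0609 to 0.163. For CDC25A the highest Ako-3 library, at 48.8 CPM, lay above the lowest Mko-3 library, at 48.4 CPM.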

How the results depend on the processing

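Against control, the number of members past the adjusted p and past both thresholds kept its direction under every alternative, and stayed within 1.5 times the main count. Leaving out 1 library gave 30 to 32 and 15 to 23 members in Ako-3 cells and 30 to 33 and 20 to 27 in Mko-3 cells, with medians of 0.99 to 1.25 and 1.04 to 1.40. DESeq2 changed no call of a member against control. Requiring at least 10 counts in every library lowered the genes called at both thresholds over the whole table. They went from 556 higher and 789 lower to 359 and 482 in Ako-3 cells. In Mko-3 cells they went from 1137 to 696 lower, and between the clones from 351 and 539 to 193 and 318. The genes tested went from 15787 to 14232, from 15745 to 14080 and from 15528 to 14101 in these comparisons. Why the calls fell was not tested. Between the clones, 1 fit of all 9 libraries gave 7 members higher and 0 lower, in place of 13 and 1, and leaving out 1 library gave 10 to 15 higher and 1 to 2 lower, with a median of 0.09 to 0.14. DESeq2 did not call E2F8 (adjusted p = 0.125) and DSCC1 (adjusted p = 0.0640) between the clones.

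Values that turned sign were all small. Scaling by library totals alone gave -0.0055 for ATAD2 in Ako-3 cells and, between the clones, 0.014 for E2F1 and 0.021 for EXO1, and EXO1 was 0.00056 without the filter on low counts. Leaving out 1 library, the values between the clones ranged from -0.047 to 0.023 for E2F1, -0.0042 to 0.082 for CDT1, -0.034 to 0.074 for GINS2, -0.018 to 0.045 for TK1, -0.023 to 0.081 for ATAD2, -0.12 to 0.028 for WDR76 and -0.060 to 0.050 for EXO1. The cause was not tested.

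Same-numbered libraries did not deviate together (correlations of -0.10 to 0.08 across genes), so the replicate numbers were not taken to pair them. With a replicate block, 32 members passed the adjusted p in each comparison with control, 21 and 25 passed both thresholds, and between the clones 14 were higher, GINS4 being the gain (adjusted p = 0.0491), and 1 lower.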
